A study of Mus musculus with 2 samples.

Results

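Late-only peaks inside gene bodies are stretches of open chromatin that were called within protein-coding genes, away from the gene ends, in prostate tumor cells of C57BL/6 mice treated with tamoxifen for 6 months (M6), and that had no overlapping peak in cells treated for 2 weeks (W2). ATAC-seq, in which a transposase cuts and tags open DNA, gave 1 peak list for each time point, with 5735 W2 peaks and 22570 M6 peaks on the autosomes, X and Y (build mm10). Both groups share the strain, the agent and the description as mouse prostate tumor cells. The sources used here do not give the allele on which tamoxifen acts, the promoter that drives it, the age of the mice, or whether the cells came straight from tumors or from culture. There were no replicates, so every interval below covers counting error only, and a difference between the libraries cannot be told apart from a difference between the treatment times.

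The members were chosen by measured values: an M6 peak had to be called, and no W2 peak could share a base with it. It also had to overlap a protein-coding gene body and touch no window of 1 kb around either end of any protein-coding gene. The rule left out 2 stretches of chromosome 4 (from 81.8 to 83.2 Mb and from 122.7 to 123.6 Mb), where 38 further peaks met the other criteria. It found 6975 members among the 22384 M6 peaks outside these stretches. Of those 22384 peaks, 17842 were late-only wherever they lay (79.7%), so most M6 peaks of any place lacked a W2 counterpart, and nothing is read from the share itself. The members lay in 3789 of 21866 protein-coding genes (17.3%).

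Open sites within genes are of several kinds. Introns of long genes hold enhancers that act on the host gene or on a neighbour, and many genes carry further promoters inside their longest annotated span, from which shorter transcripts begin. In the prostate, luminal cells depend on androgens. In neuroendocrine prostate cancer, tumor cells lose much of that program and carry genes of neurons and hormone-secreting cells, and loss of the retinoblastoma protein and p53 is common in it. A peak reports accessibility and not which gene it acts on, nor whether that gene is transcribed.

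The labelled cell type was checked at gene ends, which the rule did not use. Of the 34 genes of luminal cells and androgen response, 8 had a W2 peak and 12 an M6 peak at an end. Among all protein-coding genes, 19.7% of those with a member and 18.2% of those without had a W2 peak at an end. In M6 these shares were 47.4% and 38.0%, so 12 of 34 was no higher than among genes at large. The epithelial genes Epcam, Cdh1, Cldn3, Elf3 and Klf5, picked with their values known, had an end peak in both lists. Krt8 had one in M6, while Krt18, Krt19 and Ehf had none in either list. The prostate genes Hoxb13, Pbsn, Foxa1 and Spdef had a gene-end peak in neither list. For other cell types, the genes with a peak at either end numbered 0 in W2 and 1 in M6 of 24 leukocyte genes, 0 and 1 of 18 fibroblast genes, 0 and 0 of 15 endothelial genes, 1 and 1 of 12 smooth muscle genes, and 0 and 3 of 15 hepatocyte genes. The missing end peaks limit what can be said of prostate identity in either library.

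A first group of members coincided with a transcript start inside the host gene. RefSeq start windows (250 bases before to 50 after an annotated start, assembly GRCm38.p6) were used, and a start counted as internal where its window lay within a protein-coding gene body away from the gene-end windows. Among the members, 465 of 6975 touched such a window (6.67%, exact 95% interval 6.09 to 7.28), in 454 genes. Among the 799 M6 gene-body peaks that did overlap a W2 peak, called shared below, 246 did so (30.8%, 27.6 to 34.1). Members therefore lay at a listed internal start less often than shared peaks, by intervals that do not overlap. W2 gene-body peaks without an M6 counterpart also did so seldom, with 20 of 460 (4.35%, 2.68 to 6.64), so the low share is not particular to late-only peaks. The table of starts is not complete, so these shares are lower limits. The following 7 windows show what these starts look like. They were chosen after their values were seen, as the starts of strong members or of genes in the lists described below. They are printed in the direction of transcription, and capitals mark matches on either strand to the GC-box (GGGCGG), ETS (CCGGAAG) and CRE (TGACGTCA) letters.

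Wdr17: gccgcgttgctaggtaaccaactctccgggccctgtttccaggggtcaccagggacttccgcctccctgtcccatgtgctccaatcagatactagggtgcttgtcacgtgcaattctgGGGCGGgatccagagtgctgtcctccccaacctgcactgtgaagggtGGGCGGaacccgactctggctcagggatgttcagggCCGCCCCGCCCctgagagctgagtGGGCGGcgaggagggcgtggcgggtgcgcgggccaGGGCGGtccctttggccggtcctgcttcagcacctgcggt
Ppargc1a: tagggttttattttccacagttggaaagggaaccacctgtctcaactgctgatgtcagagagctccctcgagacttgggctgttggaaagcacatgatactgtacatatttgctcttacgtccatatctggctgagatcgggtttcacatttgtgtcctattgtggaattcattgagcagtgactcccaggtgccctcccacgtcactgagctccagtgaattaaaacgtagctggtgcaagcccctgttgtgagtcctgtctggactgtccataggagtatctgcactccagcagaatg
Tmeff2: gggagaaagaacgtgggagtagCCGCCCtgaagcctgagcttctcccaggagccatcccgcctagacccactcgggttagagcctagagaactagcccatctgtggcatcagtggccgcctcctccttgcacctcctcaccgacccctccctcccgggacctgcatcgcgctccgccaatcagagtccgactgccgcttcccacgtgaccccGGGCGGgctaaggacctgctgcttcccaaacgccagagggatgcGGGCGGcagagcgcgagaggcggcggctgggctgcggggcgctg
Scg3: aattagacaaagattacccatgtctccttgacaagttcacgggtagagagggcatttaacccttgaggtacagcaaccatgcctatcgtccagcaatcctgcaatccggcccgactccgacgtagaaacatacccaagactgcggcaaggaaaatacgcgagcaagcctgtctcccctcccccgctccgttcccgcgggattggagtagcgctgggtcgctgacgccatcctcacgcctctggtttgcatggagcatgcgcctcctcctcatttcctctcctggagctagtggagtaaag
Kdm6a: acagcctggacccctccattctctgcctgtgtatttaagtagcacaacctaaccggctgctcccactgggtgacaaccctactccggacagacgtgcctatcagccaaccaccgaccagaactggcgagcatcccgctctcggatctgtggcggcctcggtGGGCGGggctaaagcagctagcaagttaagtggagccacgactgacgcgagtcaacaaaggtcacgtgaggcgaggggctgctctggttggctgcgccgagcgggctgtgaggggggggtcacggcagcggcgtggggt
Egr2: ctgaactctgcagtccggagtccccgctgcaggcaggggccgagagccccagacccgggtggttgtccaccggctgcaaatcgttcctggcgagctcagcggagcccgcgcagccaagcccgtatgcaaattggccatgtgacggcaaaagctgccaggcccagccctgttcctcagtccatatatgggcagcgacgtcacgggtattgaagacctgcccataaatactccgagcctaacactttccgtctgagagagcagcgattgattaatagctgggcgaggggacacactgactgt
Nr4a1: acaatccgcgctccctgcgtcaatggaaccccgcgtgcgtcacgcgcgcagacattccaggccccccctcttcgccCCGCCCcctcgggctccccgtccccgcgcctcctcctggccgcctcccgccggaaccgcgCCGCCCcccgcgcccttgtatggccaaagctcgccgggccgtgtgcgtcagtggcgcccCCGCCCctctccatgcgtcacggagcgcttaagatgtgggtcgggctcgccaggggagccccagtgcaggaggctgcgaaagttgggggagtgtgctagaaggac

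The Wdr17 window lay on the minus strand at chr8:54724319-54724618 and held the strongest member of all, with its summit 158 bases upstream of the listed start and 6 GC-box matches in the window. Ppargc1a encodes a coactivator of mitochondrial genes. Its window, on the minus strand at chr5:51567676-51567975, began 548.1 kb inside the gene's annotated span and held no match to these 3 motifs. Tmeff2, a transmembrane protein with follistatin and EGF-like domains that is expressed in prostate and brain, had 3 GC-box matches in its window on the plus strand at chr1:50927273-50927572. Its start lay 26.8 kb inside the annotated span. Scg3 encodes secretogranin III, a protein of secretory granules, and its window lay on the minus strand at chr9:75684007-75684306. Kdm6a, an X-linked histone H3 lysine demethylase, had its window on the plus strand at chrX:18162325-18162624. Egr2 and Nr4a1 are immediate early transcription factors, with windows on the plus strand at chr10:67537619-67537918 and chr15:101266596-101266895. For Scg3, Kdm6a and Egr2 the start lay 1.90, 1.71 and 3.40 kb inside the annotated span, so a member can sit at a promoter close to the gene's outer end and still lie beyond the 1 kb window.

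Internal starts that held a member differed in base composition from those without a peak. Of the 3632 internal start windows, 523 (14.4%) held a member, 279 (7.68%) a shared peak and 2830 neither. Windows with a member had a median GC content of 60.7%, those with a shared peak 63.3% and those with neither 52.3%, against 52.7% over all 32851 start windows in the table. Windows rich in CpG (GC over 50% and an observed to expected CpG ratio over 0.6) made up 62.9% of those with a member (58.6 to 67.1), 79.9% of those with a shared peak (74.7 to 84.5) and 20.4% of those with neither (19.0 to 22.0). The windows with a member thus lay between the other groups, and above the 33.3% of all start windows. Base composition thus moved with the presence of a peak, and its part in these shares was not tested.

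Some of the 16 motifs searched also differed between these groups. The GC-box was present in 59.1% of windows with a member, 72.4% of those with a shared peak, 30.3% of those with neither and 35.7% of all windows. ETS letters were present in 14.5%, 17.2%, 3.78% and 8.86% of the same groups, and CRE letters in 3.44%, 3.23%, 0.989% and 1.79%. Other letters were rarer at starts with a peak of either kind than among all windows. GATA letters (AGATAA) were found in 4.21% of windows with a member, 4.30% of those with a shared peak and 11.2% of all windows. The steroid half-site letters (AGAACA) were found in 11.3%, 11.5% and 19.0% of the same groups. Their scarcity was thus not particular to starts with a member. Octamer letters (ATGCAAAT) were not rarer at starts with a member, with 2.49%, 1.43% and 1.74% in the same groups. The motifs named here were picked with their values known. These are matches of letters on both strands and not binding sites. The summit of a member lay at a median of -42.5 bases from the start, where negative values are upstream, with quartiles of -121.2 and 16.2 bases, over 528 pairs of start and member.

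The strength of a peak is given here in 4 ways. The fold is the enrichment of the summit over its surroundings in that library and the −log10 q its significance, both as the authors deposited them. The pileup is the number of tags at the summit and the background the number expected from the surroundings, both recovered from those values. Members had a median pileup of 19 tags (range 10 to 59), a median background of 3.34, a median fold of 4.48 (2.20 to 11.2) and a median −log10 q of 6.01 (1.38 to 38.3). The 799 shared gene-body peaks had a median pileup of 28, a fold of 5.39 and a −log10 q of 10.7, and were wider, at a median of 426 against 302 bases. Late-only peaks at gene ends and outside genes were close to the members, with median pileups of 20 and 18. The members were chosen for being called in M6, so these values describe them and support nothing further.

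Whether a strong M6 peak lacked a W2 counterpart depended on where it lay. At pileups of 10 to 14 tags the late-only share was 97.3% in gene bodies and 96.7% at gene ends. The shares separated as peaks became stronger. At 25 to 29 tags they were 87.4% in gene bodies and 57.6% at gene ends, and at 40 tags or more 46.4% (121 of 261, exact 95% interval 40.2 to 52.6) and 6.70% (72 of 1074, 5.28 to 8.37). Peaks outside genes stayed close to those in gene bodies, with 58.3% (98 of 168) at 40 tags or more. Over all strengths the late-only share was 89.7% in gene bodies (6975 of 7774), 60.9% at gene ends (5042 of 8281) and 92.0% outside genes (5825 of 6329). Gene bodies thus held 39.1% of late-only M6 peaks and 17.6% of shared ones.

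**Figure D1:**
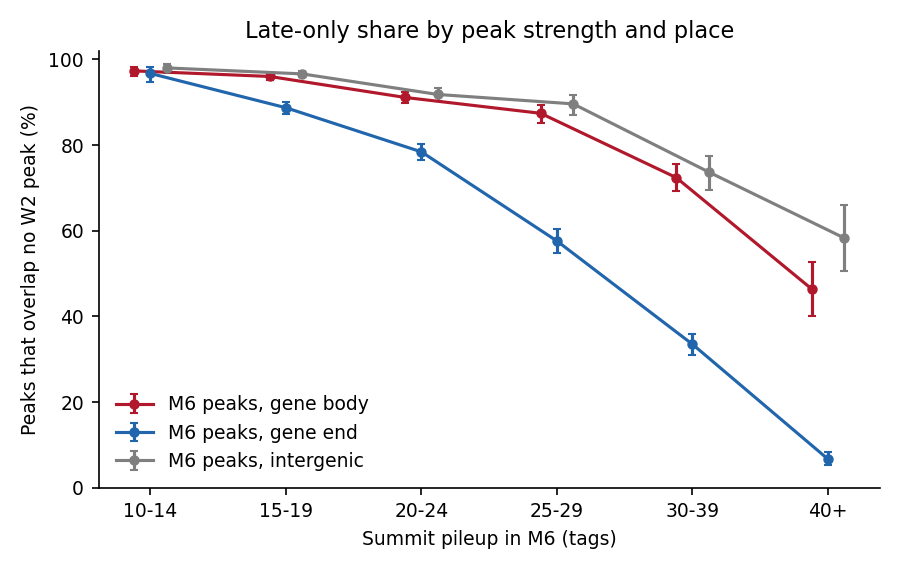
Percent of M6 peaks that overlap no W2 peak (vertical axis) by summit pileup in tags (horizontal axis), for peaks in gene bodies, at gene ends and outside genes. Points are shares and bars their exact 95% intervals. At 40 tags or more the share was 46.4% in gene bodies and 6.70% at gene ends, while at 10 to 14 tags the 3 places lay between 96.7% and 98.0%.

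The same split was seen within gene bodies between starts and other sites. Of M6 gene-body peaks with 40 tags or more, 12 of 70 that touched an internal start were late-only (17.1%, 9.18 to 28.0), against 109 of 191 away from the listed starts (57.1%, 49.7 to 64.2). At 30 to 39 tags the shares were 39.0% and 79.8%. At 10 to 14 tags they did not separate, at 97.7% and 97.3%. Strong gene-body peaks away from listed starts were therefore the class more often without a W2 counterpart.

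The W2 list limits how far absence can be read. Its lowest pileup was 12 tags and its genome-wide background floor 2.96, against 10 tags and 2.65 in M6, so a site with fewer tags in W2 is not listed. At the 799 sites called in both lists the M6 pileup was a median 1.33 times that of W2 (log2 0.42, quartiles 0.07 and 0.74) and was higher at 76.2% of them. After division of the member pileups by this ratio, 1492 of 6975 (21.4%) fell under 12 tags, lower than any pileup in the W2 list. The ratio is a median and the threshold of the list is not known, so this does not settle whether a given site could have been listed. On the same scale 1186 members reached 20 tags, the median of the W2 gene-body peaks. At that ratio these could have been listed in W2, although the ratio rests on sites detected in both lists. The W2 list had gene-body peaks of its own, 1283 in number, of which 460 (35.9%) had no M6 counterpart. Members were rarely extensions of a W2 peak: 98 (1.41%) had one within 1 kb and 495 (7.10%) within 10 kb.

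The 12 strongest members had between 42 and 57 tags over backgrounds of 2.92 to 5.48, and each lay in a different gene. The first, in Wdr17 (chr8:54724180-54724700), had 57 tags over a background of 4.20, an 11.2-fold enrichment and a −log10 q of 38.3. The second, in Ppargc1a (chr5:51567600-51568127), also had 57 tags, with a 9.67-fold enrichment and a −log10 q of 34.5. Both touched the starts printed above. The nearest W2 peaks were 193965 and 231648 bases away.

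Other strong members lay deep inside genes of varied function. Sipa1l2, of a family of Rap GTPase-activating proteins, held a member with 51 tags (−log10 q 31.6). Lrp1b, a large receptor of the LDL receptor family, held 1 with 45 tags over 3.12 (31.2), which lay 993091 bases from the nearer gene end and 2333051 bases from any W2 peak. Srpk2, a kinase of splicing factors, had 47 tags (31.0), and Mrps28, a protein of the mitochondrial ribosome, 48 (30.8). Acnat1, an acyltransferase of fatty acid metabolism, had 49 tags (30.7), and Plcb4, a phospholipase C, 53 (30.1). Oxr1, an oxidation resistance gene, followed with 54 (29.8), AW554918 with 42 (29.0) and the contactin-associated gene Cntnap5a with 49 (27.8). Slc8a1, the sodium-calcium exchanger, had 47 (27.4). None of these genes belongs to the neuroendocrine list described below. That list held 37 members of all 6975, so nothing is read from its absence here. Of the 100 strongest members, 7 touched a listed internal start, a share like that of all members.

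Members were spread over many genes. Of the 3789 genes that held any, 2370 held 1, 678 held 2 and 243 held at least 5. The gene with the most was Pde4d, a cAMP phosphodiesterase of 1302 kb, with 18 members of 12 to 38 tags (median 18). Its body also held 1 shared peak and 1 W2 peak without an M6 counterpart, and no gene-end peak was called in either library. Auts2, a neurodevelopmental regulator, held 15, and Tenm4, a teneurin adhesion protein, 14. Anks1b, a synaptic scaffold, held 13. Cacna1e (a voltage-gated calcium channel), Farp1 (a guanine nucleotide exchange factor), Grip1 (a glutamate receptor scaffold) and Gse1 held 12 each, and Adamtsl1, an extracellular matrix protein, was 1 of 10 genes tied at 11.

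Trio, a guanine nucleotide exchange factor, held 14 members in 295.2 kb (chr15:27730649-28025848). This is 4.74 per 100 kb, close to the 4.83 of Farp1 (248.6 kb) and above the 1.38 of Pde4d, and peaks at its ends were called in both lists. The strongest had 49 tags over a background of 7.74 (−log10 q 19.1) and the weakest 15 tags. No shared peak and no W2 peak lay within its body. An end of Trio was thus called at both times, and the 14 sites inside it at the later time alone.

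Among genes with at least 5 members, Dnmt1, the maintenance DNA methyltransferase, was the densest, with 5 members in 52.7 kb (9.49 per 100 kb). The 5 had 32, 31, 26, 23 and 21 tags over backgrounds of 5.08 to 6.26. They fell into a stretch of 9.19 kb, and the member with 31 tags touched a start that RefSeq places 6.91 kb inside the gene's span. No gene-end peak of Dnmt1 was called in W2 or M6. Bace2, an aspartyl protease, followed with 6 members in 86.2 kb, all of 14 to 20 tags. Rxra, the retinoid X receptor alpha, had 5 in 86.9 kb, of 16 to 25 tags. Galnt2, a glycosyltransferase, had 6 and Lgr4, a receptor for R-spondins, 5, of which the strongest had 43 tags (−log10 q 21.9) and the others 15 to 20. The remaining genes by this rule were 3110082I17Rik, Serinc5 and Farp1, at 4.96, 4.96 and 4.83 members per 100 kb.

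**Figure D2:**
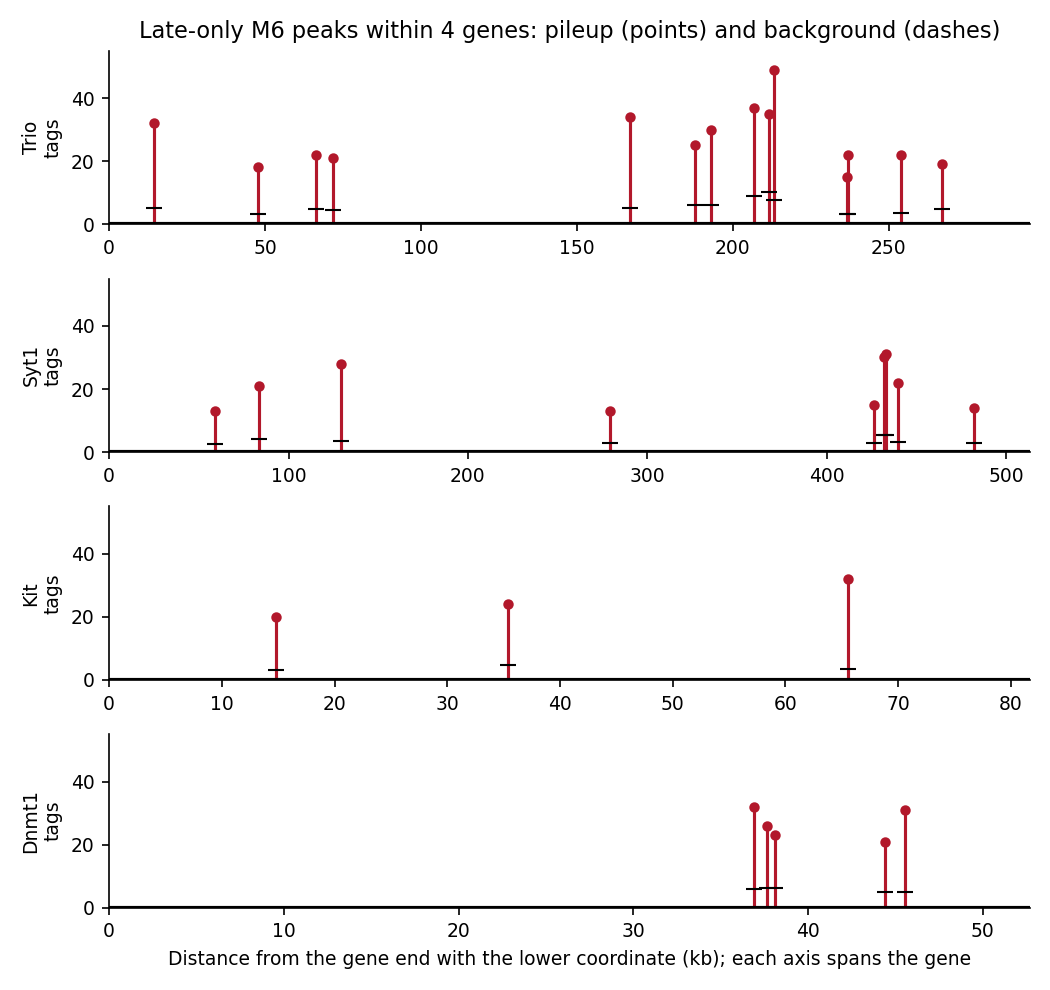
Late-only M6 peaks along 4 genes, with the distance from the gene end of lower coordinate in kb (horizontal axes, each spanning the gene) and tags (vertical axes). Points are summit pileups and dashes the local background. The 14 members of Trio reach 49 tags, the 9 of Syt1 reach 31, the 3 of Kit reach 32, and the 5 of Dnmt1 lie together within 9.19 kb.

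Long genes held more members, while the density per Mb of whole body changed less. The share of genes with a member rose from 1.96% of genes under 10 kb to 10.5% (10 to 30 kb), 27.7% (30 to 100 kb), 58.0% (100 to 300 kb) and 83.5% of genes over 300 kb. Per Mb of body the 5 classes held 5.13, 6.28, 6.84, 7.87 and 5.82 members, against 6.71 over all genes. The body here includes the gene-end windows, where no member can lie and which take the largest part of short genes. The value for genes under 10 kb is therefore too low, and these densities do not show a flat profile over the body open to members. Shared peaks per Mb fell by more between genes of 10 to 30 kb and those over 300 kb, from 1.50 to 0.235, where members went from 6.28 to 5.82. The median length was 76.9 kb for genes with a member and 12.9 kb for those without. Any list of long genes, neuronal genes among them, will therefore hold many members, and the lists below are set beside all genes of the same length classes.

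**Figure D3:**
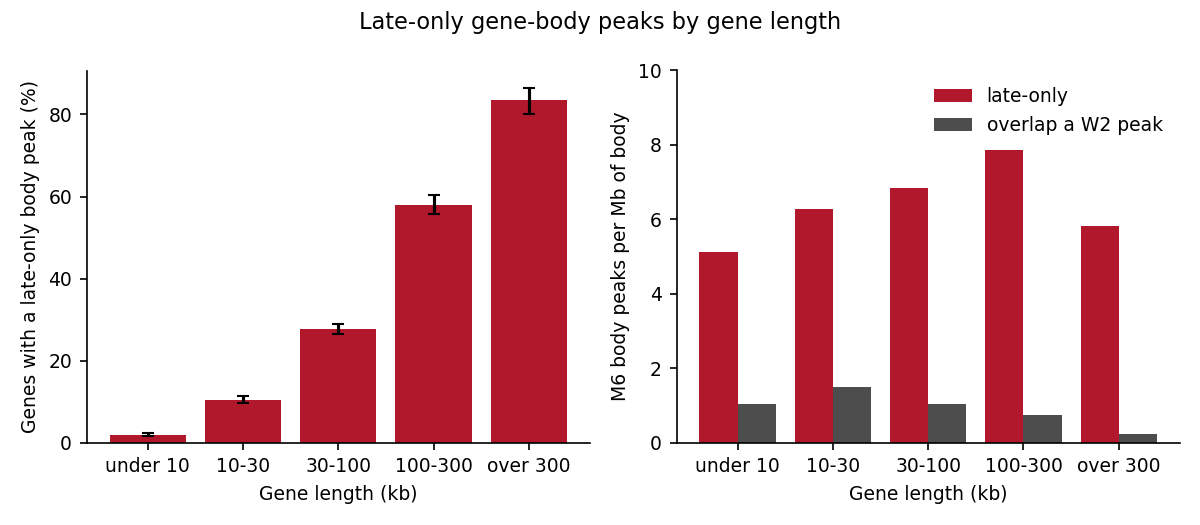
Left, percent of protein-coding genes with at least 1 late-only body peak by gene length in kb, with exact 95% intervals. Right, M6 body peaks per Mb of gene body, late-only (red) and overlapping a W2 peak (grey). The share of genes climbed from 1.96% to 83.5%, while late-only peaks per Mb stayed between 5.13 and 7.87. Bodies are counted whole, with the gene-end windows that hold no late-only body peak, which lowers the value of short genes most.

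Gene-end peaks of the host genes were not used by the rule. In W2, 19.7% of genes with a member had a gene-end peak (18.4 to 21.0), against 18.2% of genes without (17.6 to 18.7). In M6 the shares were 47.4% (45.8 to 49.0) and 38.0% (37.3 to 38.7). Within length classes the M6 difference was present in long genes and not in shorter ones. For genes of 100 to 300 kb it was 51.0% against 42.0%, and for those over 300 kb 44.2% against 27.2%, each with intervals that do not overlap. For genes of 10 to 30 and 30 to 100 kb the shares were 44.3% against 45.0% and 49.2% against 49.8%. The M6 list is the longer of the lists, and the part of that in this difference was not tested. Of the 3789 genes, 1970 (52.0%) had a gene-end peak in neither list, and 2583 (68.2%) had no W2 peak at all in the body or at the ends.

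The neuroendocrine list covers granule proteins, neuronal RNA-binding proteins and transcription factors of neuroendocrine tumors. Of its 39 measured genes, 15 held a member (38.5%, 23.4 to 55.4), where all genes of the same length classes give 8.07. Together they held 37 members, where the length classes give 15.3, or 15.8 per Mb of body (exact Poisson interval 11.1 to 21.8) against 6.71 over all genes. Without Syt1, which alone held 9, the ratio to the length classes was 2.34 in place of 2.42. The list held 2 shared body peaks, close to the 1.68 its length classes give. With a −log10 q of at least 5 the ratio was 2.45, from 24 members. When M6 was cut to as many peaks as W2, taking the strongest, 3 members remained where 2.36 were given by length, a ratio of 1.27. The interval of those 3 is wide, 0.264 to 3.74 per Mb against 1.02 over all genes.

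In 12 of the 15 genes the strongest member had a −log10 q above 6.01, the median of all members. Most of these genes held several members, and the strongest of several is more often above a median of single members. Nothing is therefore read from this count. Syt1, the calcium sensor of synaptic vesicles, held 9 of 13 to 31 tags. Kit, a receptor tyrosine kinase (chr5:75574987-75656722), held 3, with 20 tags at 14.7 kb and 24 tags at 35.2 kb from its 5′ end and 32 tags at 15.9 kb from its 3′ end. The last had a background of 3.60 and a −log10 q of 16.1. Scg3 held 1 of 31 tags at the start printed above (15.2). Ddc, the decarboxylase of monoamine synthesis, held 3 of 29, 19 and 19 tags, and Srrm4, a neuronal splicing factor, 3 of 24, 22 and 17. Onecut2, a transcription factor of neuroendocrine prostate cancer, held 2 of 26 and 11 tags. Elavl4 and Scg5 held 3 each, Prox1, Ncam1 and Pcsk2 held 2 each, and Elavl3, Myt1, Insm1 and Cpe 1 each. At their ends, 2 of the 39 genes had a W2 peak and 21 an M6 peak. Of the 15 with a member, 5 had no M6 gene-end peak. Gene-end peaks were more common in M6 over all genes too. Genes with a member had one in 19.7% of cases in W2 and 47.4% in M6, and genes without in 18.2% and 38.0%. The part of the longer M6 list in the neuroendocrine counts was not tested.

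**Figure D4:**
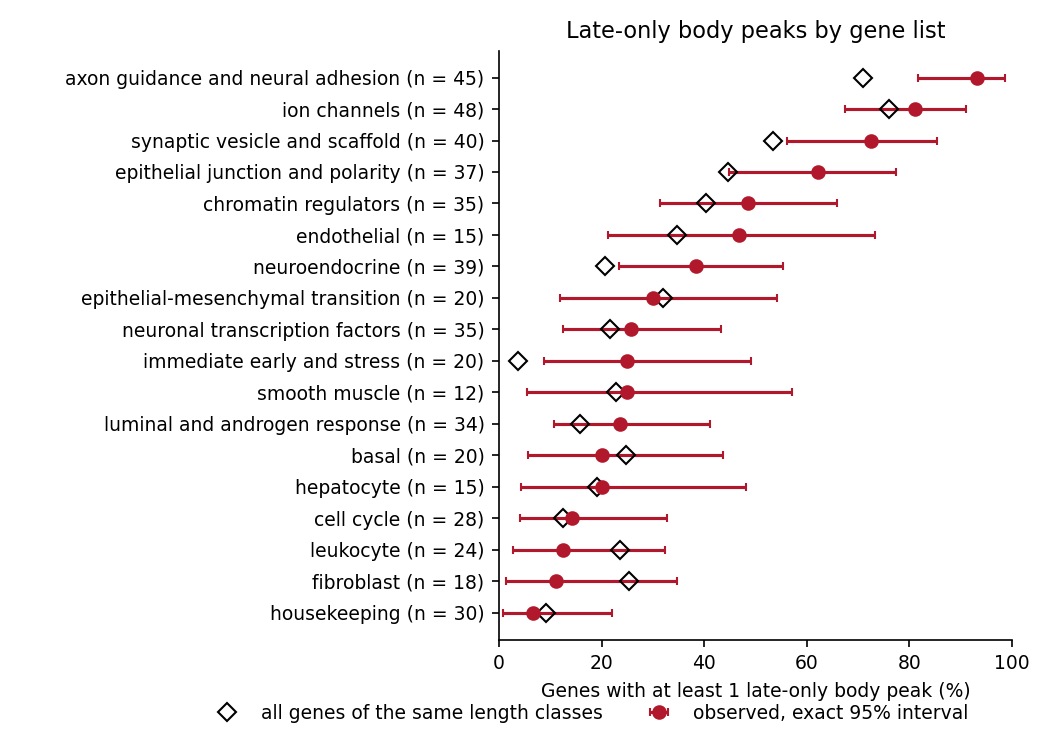
Percent of the genes of each list with at least 1 late-only body peak (horizontal axis), observed with its exact 95% interval (red) and as given by all genes of the same length classes (diamonds). The observed share was 38.5% of 39 neuroendocrine genes, 93.3% of 45 axon guidance genes and 11.1% of 18 fibroblast genes.

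Neural adhesion genes held members in nearly every case. Of the 45 genes for axon guidance and neural adhesion, 42 held a member, where length gives 31.9, with 165 members against 110.0. Cntnap5a (49 tags), Negr1 (42 and 18 tags, an adhesion molecule of neurons), Cntn5 (9 members) and Robo2 (11 members of 17 to 36 tags, a receptor for Slit proteins) held the strongest, and Lsamp had as many as Robo2. Of the 40 synaptic vesicle and scaffold genes, 29 held a member where length gives 21.4, with 92 members against 68.6. Nlgn1, a postsynaptic neuroligin, held 5 of 45, 45, 17, 17 and 13 tags. Dlgap2 held 6 and Syt2 2. For both lists the ratio stayed above 1 when M6 was cut to as many peaks as W2, at 1.25 and 1.55. Per Mb of body, however, they held 6.37 and 5.98 members, against 6.71 over all genes and 5.82 in genes over 300 kb. The class over 300 kb has no upper limit, so the counts given by length do not fully match the longest genes. The part of gene length in these ratios was not tested further.

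Over all M6 peaks, the lists of ion channels and neuronal transcription factors were near what their length gives by number of genes. Of 48 channel genes, 39 held a member where length gives 36.5, with 143 members against 131.3. Cacna1e held 12 and Cacna2d1, an auxiliary calcium channel subunit, 8. Kcnip4 held 5 and the potassium channel gene Kcnj6 2. Among 35 neuronal transcription factor genes, 9 held a member where length gives 7.55. The 38 members against 24.2 rest on Auts2. Without it the ratio fell from 1.57 to 1.10. Rbfox1 and Rbfox3, neuronal splicing regulators, held 6 each, and Dlx1 and Lhx2, homeobox factors, 1 each. The Rbfox genes are counted in the list, so its totals and ratios do not describe transcription factors alone. With as many M6 peaks as W2 peaks the ratio of this list was 0.779. That of the channel list was 1.28, from 27 members against 21.0, so it also stayed above 1.

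Genes of luminal cells and androgen response held few strong members. Of 34 genes, 8 held a member where length gives 5.35, with 12 members against 8.40. They were led by Cd24a (34 tags over 6.74), Cdh1, which encodes E-cadherin (29 and 21 tags), Klf5 (23 tags) and Grhl2, an epithelial transcription factor with 24, 15 and 11 tags. With a −log10 q of at least 5 the ratio fell from 1.43 to 0.557, and with as many M6 peaks as W2 peaks no member was left. Of 37 epithelial junction and polarity genes, 23 held a member where length gives 16.5, with 53 members against 43.1. Without Pkp4 the ratio fell from 1.23 to 1.08. With Pkp4 kept, it was 1.38 at a −log10 q of at least 5. With as many M6 peaks as W2 peaks it was 1.61, from 11 members against 6.81. Esrp2, an epithelial splicing factor, had 1 of 48 tags over 8.52, and Pkp4, a plakophilin, had 8 of 13 to 31 tags. Magi1 and Pard3b, scaffold proteins of junctions and polarity, held 2 and 4.

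Basal genes and genes of the epithelial-mesenchymal transition were near their length classes. Of 20 basal genes, 4 held a member where length gives 4.95: Trp63, which encodes the basal factor p63 (26 and 14 tags), Dst (6 members), Itga6 (2) and Egfr (1). Of 20 transition genes, 6 held a member where length gives 6.41, led by Tcf7l1, a TCF/LEF factor (44, 29 and 16 tags), followed by Cdh11, Spock1 (6 members) and Cdh2. Of 35 chromatin regulators, 17 held a member where length gives 14.1. Arid1b, a subunit of the BAF complex, held 6, Hdac9, a histone deacetylase, 8, and Jarid2, a partner of Polycomb complex PRC2, 3. Kdm6a held 1 of 29 tags at the start printed above.

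Genes of other cell types were below or near their length classes. Of 24 leukocyte genes, 3 held 1 member each where length gives 5.64 genes and 10.3 members. The strongest was in Ikzf1, which encodes the lymphoid factor Ikaros, with 41 tags (−log10 q 22.4), and the others in Skap1 and Ikzf3. Of 18 fibroblast genes, 2 held 1 member each, Col6a3 and Pdgfra, against 4.56 genes and 7.04 members by length. Of 12 smooth muscle genes, Mylk, Lmod1 and Ldb3 held 1 each, and of 15 hepatocyte genes, Ttr, Apob and Abcb11 held 1 each, where length gives 2.73 and 2.87 genes. Endothelial genes were near theirs, with 7 of 15 against 5.20 and 11 members against 9.87. Erg (30 tags), Tek (34), Vwf (39, 29 and 17) and Ets1 (2 members) held the strongest of them. The part of admixed cells was not tested beyond these counts and the gene-end counts given above.

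Genes that most cells use gave 3 short lists. Of 30 housekeeping genes, 2 held a member where length gives 2.73, Ywhaz (40 and 24 tags) and Reep5. Of 28 cell cycle genes, 4 did where length gives 3.47. Their 12 members against 5.29 include 8 in Cdk6, all of 13 to 18 tags, and without it the ratio was 0.995. Rb1, Cdkn1a and E2f3 held the others. Of 20 immediate early and stress genes, 5 held a member, Egr2 (34 and 21 tags), Nr4a1 (22 and 18), Nr4a2, Klf6 and Fosl2, where length gives 0.735. The genes of this list are short, with a median of 3.57 kb. Counted over the body outside gene-end windows, the list had 69.9 members per Mb against 6.99 over all genes, from 7 members. With a gene-end window of 5 kb, 2 of the 5 genes held 3 members where length gives 0.200.

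Single genes of neuroendocrine prostate cancer varied. Kit held 3 members. Rb1, the retinoblastoma gene, held 2, with 33 tags over 4.14 (−log10 q 15.3) and 15 tags over 2.65. Trp53, the gene for p53, held 1 of 27 tags that lay 1.08 kb from a gene end, just outside the window, and its gene-end peak was called in both libraries. Insm1, a neuroendocrine zinc finger factor of 3.02 kb, held 1 of 25 tags over 6.44 at 1.21 kb from a gene end. Foxa2, Chga, Syp, Myc and Ezh2 held none.

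Along the gene, members were spread more evenly than shared peaks. Strand was known for the single host gene of 5406 members and 635 shared peaks. Of these members 54.5% lay nearer the 5′ end (53.2 to 55.9), against 66.8% of shared peaks (63.0 to 70.4). Members lay a median of 49.8 kb from the 5′ end and shared peaks 15.5 kb. The density of members was 10.8 per Mb at 1 to 5 kb from the 5′ end and 6.21, 6.93 and 6.04 at 5 to 20, 20 to 100 and over 100 kb. Shared peaks fell from 2.76 to 1.26, 0.608 and 0.338 per Mb over the same zones. From the 3′ end members had 5.35 per Mb at 1 to 5 kb and 7.46 at 20 to 100 kb.

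**Figure D5:**
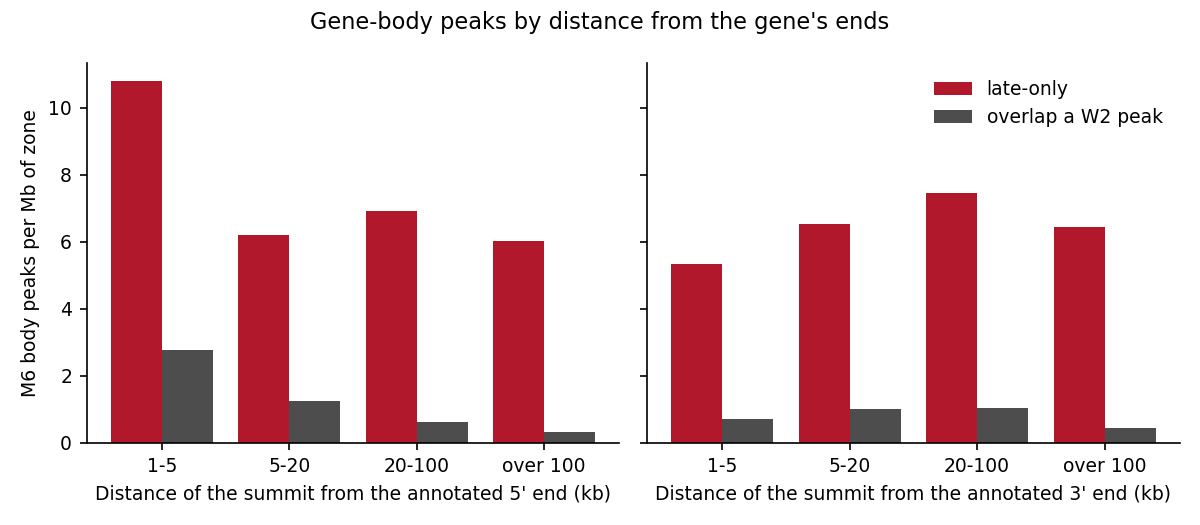
M6 gene-body peaks per Mb of gene body (vertical axis) by distance of the summit from the annotated 5′ end (left) and 3′ end (right) in kb, for late-only peaks (red) and peaks that overlap a W2 peak (grey). Late-only peaks went from 10.8 per Mb at 1 to 5 kb from the 5′ end to 6.04 beyond 100 kb, and shared peaks from 2.76 to 0.338.

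Most members stood alone. The median gap between neighbours was 107.3 kb. Members within 12500 bases of each other formed 733 clusters that held 1597 members (22.9%), of which 106 had at least 3 members and 21 at least 4. The largest had 5, in Dnmt1, Gse1, Bcr and across Atp5d and Midn. In the last the background was 8.60 to 12.2 tags, well above the median of 3.34, while in Dnmt1 it was 5.08 to 6.26 and in Bcr 4.02 to 5.38. Long non-coding RNA genes overlapped 464 members (6.65%).

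The X chromosome held fewer members for its length. It had 78 in gene bodies, or 1.71 per Mb of body, against 6.01 to 8.47 on the single autosomes, and their median background was 2.65, the floor. The shared peaks were also few there, 3 on the X. Of the 81 gene-body peaks on X, 78 were late-only (96.3%, 89.6 to 99.2), against 89.7% on autosomes. The low background moved with the low count, and its part was not tested. The Y chromosome held none.

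At its limits the rule separates peaks that hardly differ. The member nearest to a W2 peak, in Nectin1, was 1 base from it, and those in Esr1 and Golga7 were 23 and 26 bases away. Just outside the rule, peaks in Mtmr12, Rnf44 and Eif4g3 overlapped a W2 peak by 11, 18 and 30 bases. Members in Prkar1a, Slc11a2 and Faah lay 1001 bases from a gene end, and peaks left out in Arpp21, Upp2 and Impact 999, 994 and 993 bases. The weakest members, in Fut8, Scn1a and Fam13c, had −log10 q values of 1.38, 1.44 and 1.51 with 12, 10 and 10 tags.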

How the data were processed

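ATAC-seq was done on mouse prostate tumor cells in 2 libraries, W2 (tamoxifen for 2 weeks) and M6 (6 months), grouped by the labels. The submitters' processing notes name build mm10, deepTools, SAMtools 1.4, Bowtie2 and Trim Galore 0.5.0. The sources used here give neither the peak caller, its threshold, any shift of read ends and the handling of duplicates, nor the read depth. Peaks were deposited per library, not pooled. The authors deposited for each peak a fold (a linear ratio over the local background), a −log10 p and a −log10 q. The score that the authors deposited was not used. The p was read as a Poisson upper tail of the pileup given the background, and the fold as the pileup plus 1 over the background plus 1, which together give both. This gave a whole pileup for 100% of peaks of both libraries within 0.001 of the −log10 p. The code was run on 1901 simulated peaks (100% recovered). These were made with the same formulas, so they check the code and not whether the deposited values follow them.

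Peaks sharing at least 1 base were called overlapping. Genes were the 21887 protein-coding genes of a RefSeq table of GRCm38.p6, the assembly of mm10, and 21 that overlap the left-out stretches entered no gene count. Strand and start windows came from RefSeq promoter sequences, which cover 17474 of the genes counted. Exons, introns and the sequence under peaks were not analysed here, since no genome was used. The planned motif search was therefore made in start windows, with 16 motifs. For each list, the members given by length are the sum over its genes of the mean count of all genes in the same of 5 length classes. With 1 library per group no test was made and no p-value is given. Shares carry exact (Clopper-Pearson) 95% intervals for counting error. The members and the 19 gene lists were chosen with earlier results of these data known. Genes are named by rule: the 12 strongest members by −log10 q, the 10 genes with the most members, the 8 densest with at least 5, in each list up to 4 with the strongest member and the one with the most, 13 single genes, and the 3 members nearest each limit. Some genes and 1 list that the rule selects are not reported here. Other genes named in lists, the epithelial, prostate and printed start genes were chosen after values were seen. Settings tried were a W2 peak within 1 kb, a −log10 q of at least 5, as many M6 as W2 peaks, a pileup of at least 12, gene-end windows of 2 and 5 kb, the summit in place of the overlap, the chromosome 4 stretches kept, and peaks with a background of at least 3 times the median left out. Python 3.11.15, numpy 2.4.6, pandas 2.3.3, scipy 1.17.1 and matplotlib 3.10.9 were used.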

Additional observations from a re-analysis of the deposited data

How the results depend on the processing

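Values are given as main against alternative. With a −log10 q of at least 5 the members numbered 4444 in place of 6975, the late-only share of gene-body peaks was 86.3% in place of 89.7%, the share of genes with a member 12.8% in place of 17.3%, the neuroendocrine list had 10.2 in place of 15.8 members per Mb (all genes 4.28) and the median −log10 q was 7.74 in place of 6.01. With as many M6 peaks as W2 peaks (lowest −log10 q 10.8) there were 1063 members, 72.8% of gene-body peaks were late-only, gene bodies held 38.1% of late-only peaks in place of 39.1%, 4.20% of genes held a member, the neuroendocrine list had 1.28 per Mb (all genes 1.02) and the median −log10 q was 13.7. With gene-end windows of 2 and 5 kb the late-only share of gene-body peaks was 90.5% and 91.5%, gene bodies held 36.2% and 32.4% of late-only peaks, and 15.7% and 13.5% of genes held a member. At 40 tags or more, the window of 5 kb gave a late-only share of 54.2% in place of 46.4% in gene bodies and 9.34% in place of 6.70% at gene ends. Counting a W2 peak within 1 kb as a counterpart gave 88.5% in place of 89.7%. The summit gave the same members by construction. The values named here stayed within their counting interval, or within 1.5 times for the number of members, with a pileup of at least 12, with the chromosome 4 stretches kept and with raised backgrounds left out. Of 31 further counts (genes per list, members in the 10 genes with the most, the 12 strongest members), 30 moved by over 1.5 times with as many M6 as W2 peaks, 12 under the minimum −log10 q of 5, and 2 and 5 with the wider windows. The 12 strongest were still members with as many M6 as W2 peaks. No paired analysis was possible because each time point had 1 library. Read depth is not known, and absence in W2 is limited by its list, which holds no pileup under 12 tags.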
